A study of Homo sapiens with 2 samples.

Results

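The genes described here are 10 components of the machinery for endoplasmic reticulum (ER)-associated degradation (ERAD), namely SEL1L, SYVN1, HERPUD1, EDEM1, EDEM2, EDEM3, DERL1, DERL2, OS9 and RNF185. They were found by gene name among the 61806 Ensembl genes counted, and all 10 had a deposited value in both libraries. HEL is a human erythroleukemia cell line, and its genotype is labelled as wild type. The cells were treated for 24 h with 1 µM L1, a synthetic derivative of 3,3′-diindolylmethane, or with 0.5% DMSO as vehicle. RNA was enriched for mRNA and sequenced in 1 library per condition, with 32556872 counted reads for DMSO and 27135647 for L1. The spread between cultures was therefore not measured, and every difference below lacks a replicate check and a test. All intervals are exact 95% intervals (Clopper-Pearson) on the split of a gene's counts between the libraries, and they cover counting error only. The 9 erythroid and megakaryocytic markers examined were present in both libraries, from 19.2 to 883 FPKM (fragments per kilobase of gene length, scaled to library size). Markers of T cells, B cells, hepatocytes, epithelium and myeloid cells (CD3E, MS4A1, ALB, EPCAM and MPO) each had 0 counts in both libraries, which allows up to 3 counts. Other genes of T, B and myeloid cells were counted, among them CD6 (2385 with DMSO and 1842 with L1), CD79B (46 and 37) and LYZ (647 and 486). The genes at 0 therefore do not show that genes of these lineages are absent. In such bulk RNA, fewer cells of a kind and less RNA per cell cannot be told apart.

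ERAD removes proteins that fail to fold in the ER. Misfolded glycoproteins lose mannose residues, are recognised by lectins, pass back across the ER membrane, are ubiquitinated on the cytosolic side, are pulled out by the ATPase VCP and are degraded by the proteasome. Many ERAD genes are transcriptional targets of the unfolded protein response, through the factors ATF6, XBP1 and ATF4, and cells with a high secretory load depend on them.

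The promoters of the members carry different matches to the DNA elements of this response. RefSeq promoter windows (GRCh38.p14, from 250 bases before to 50 bases after the transcription start) matched 8 of the 10 members by symbol, and RNF185 and DERL1 had no entry. The windows were searched on both strands for the ER stress response element ERSE (CCAAT, 9 bases, CCACG), for a shorter form of it (CCAAT, 9 bases, CCA), for ERSE-II (ATTGG, 1 base, CCACG), for the core TGACGTGG of the unfolded protein response element, for the ATF4 element TTGCATCA and for CCACG alone. Each full ERSE is also a match to the shorter form, and each ERSE and ERSE-II also contains CCACG. HERPUD1 was the member with a match to ERSE-II, from -117 to -107 relative to the start, and with a match to TTGCATCA, from -176 to -169. Over all 35116 windows, 0.0541% held ERSE-II and 0.866% held TTGCATCA. The shorter form of ERSE was found in HERPUD1, from -83 to -67, and in SEL1L, from -207 to -191, against 1.12% of all windows. No member window held the full ERSE (0.0769% of all windows) or TGACGTGG (0.729%). CCACG alone was in 6 of the 8 windows (EDEM1, EDEM3, HERPUD1, OS9, SEL1L and SYVN1) and in 38.1% of all windows. A match is a run of letters and was not tested as a binding site.

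Upstream stretches are printed for HERPUD1 and SEL1L, whose windows hold these longer matches and whose counts were higher with L1. That of EDEM3, whose counts were also higher but whose window held CCACG alone, is printed too. They were picked with the ratios known, and a link between elements and ratios was not tested. CCACG also lay in the windows of SYVN1, EDEM1 and OS9, whose log2 ratios of L1 over DMSO were -0.59, 0.0039 and 0.17. Each runs 5′ to 3′ on the strand of the gene, ends where the first annotated exon begins, and has in capitals the letters that match the elements (for the shorter ERSE without its 9 spacer bases, and CGTGG where CCACG lies on the other strand). The stretch of HERPUD1 runs from -250 to -95, so its shorter ERSE match, from -83 to -67, lies beyond the letters printed. HERPUD1 is at chr16:56931892-56932047 (+), SEL1L at chr14:81533862-81534103 (-) and EDEM3 at chr1:184754914-184755108 (-).
HERPUD1: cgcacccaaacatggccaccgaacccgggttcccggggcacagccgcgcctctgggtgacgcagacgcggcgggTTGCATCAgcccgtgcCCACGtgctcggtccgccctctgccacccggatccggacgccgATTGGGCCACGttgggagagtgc
SEL1L: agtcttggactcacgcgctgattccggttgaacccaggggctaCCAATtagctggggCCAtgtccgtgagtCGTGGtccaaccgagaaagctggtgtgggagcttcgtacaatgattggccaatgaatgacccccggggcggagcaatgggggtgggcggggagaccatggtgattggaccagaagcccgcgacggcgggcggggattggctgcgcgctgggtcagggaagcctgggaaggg
EDEM3: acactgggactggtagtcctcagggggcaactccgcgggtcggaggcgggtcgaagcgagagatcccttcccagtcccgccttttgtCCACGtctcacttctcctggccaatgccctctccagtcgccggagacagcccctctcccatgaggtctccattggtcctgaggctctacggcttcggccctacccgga

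By the deposited FPKM, the members covered a 14.0-fold range of levels in the DMSO library and a 7.32-fold range in the L1 library. OS9 was the highest, with an FPKM of 18.1 with DMSO and 20.4 with L1, followed in both libraries by DERL1, EDEM1, EDEM2 and SEL1L. The order of the remaining members differed between the libraries. RNF185 went from position 9 with DMSO to position 6 with L1, and SYVN1 from position 6 to position 9. EDEM3 was last in both, at 1.30 and 2.79 FPKM. The FPKM of all 10 members summed to 76.0 with DMSO and to 90.1 with L1, a ratio of 1.19. RNF185 made up 1.84% of the first sum and 8.22% of the second, and SYVN1 6.77% and 3.80%.

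**Figure D1:**
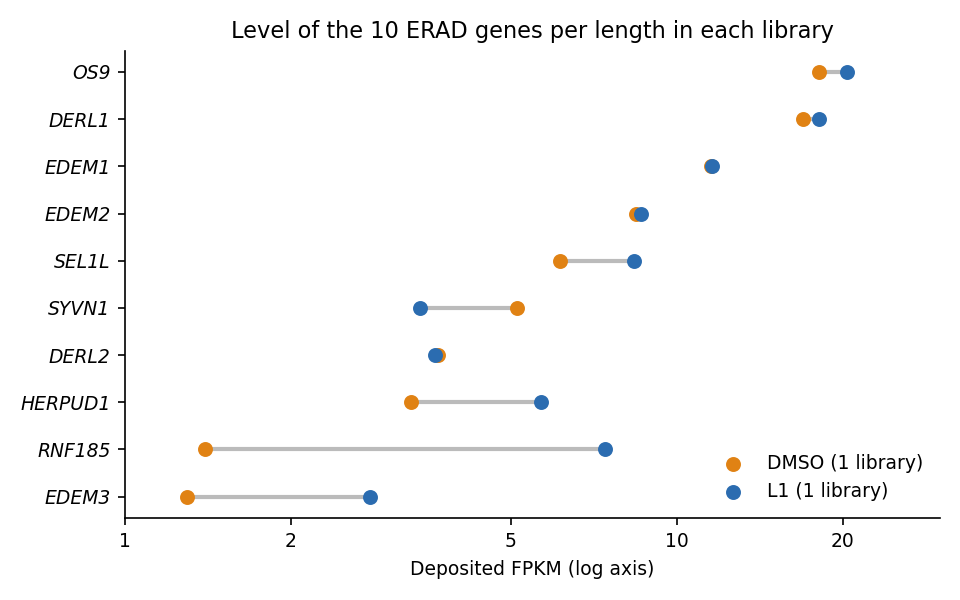
Deposited FPKM (log axis) of each of the 10 ERAD genes, with 1 point for the DMSO library and 1 for the L1 library, sorted by the DMSO value. The points of RNF185 lie farthest apart (1.40 and 7.40 FPKM), and SYVN1 is the member whose L1 point lies clearly to the left (5.15 and 3.42 FPKM).

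The range, the shares and the position of EDEM3 rest on the gene length that went into the FPKM. Dividing the scaled count (CPM, relative to library size) by the FPKM gave a length of 18453 bases for EDEM3 and 8635 for OS9, against 7804 and 5169 bases of exon in GENCODE release 29. For the other 8 members both lengths lay close together, with a ratio between 0.975 and 0.993. With the GENCODE lengths EDEM3 was at a CPM per kilobase of 3.07 with DMSO (position 9) and at 6.59 with L1 (position 7), and RNF185 was then last with DMSO, at 1.39. With these lengths the range was 21.8-fold with DMSO and 10.0-fold with L1. RNF185 then made up 1.56% and 6.91% of the summed level of the members, and SYVN1 5.74% and 3.19%. The first 5 positions stayed with OS9, DERL1, EDEM1, EDEM2 and SEL1L in both libraries. The ratio between the libraries does not depend on the length used to scale it. The checks for overlapping genes and shared sequence given below used the GENCODE exons. Whether reads from further bases were counted for EDEM3 and OS9 is not known.

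Between the libraries, the members had log2 ratios on both sides of 0. Counts were scaled by edgeR's TMM method. For counts of genes past a fold and for medians a prior count of 2 was added, and 18123 genes passed a minimum of 10 counts in 1 library, among them all 10 members. At least 2-fold higher with L1 were 2 of the 10 members, EDEM3 and RNF185, against 7.12% of all genes kept. None was at least 2-fold lower, against 4.83% of all genes. At 1.5-fold, 3 members (HERPUD1, EDEM3 and RNF185) were higher, against 13.8% of all genes, and SYVN1 was lower, against 11.4%. Every member had at least 100 counts in 1 library, and among all genes that did, 3.13% were past 2-fold upward, 7.38% past 1.5-fold upward and 8.22% past 1.5-fold downward. The median log2 ratio of L1 over DMSO was 0.14 over the members and -0.0040 over all genes kept. With 10 members a share moves by 10 percentage points for each gene. Without a prior count, the whole counting interval lay above 0 for 6 members (26.8% of all genes) and below 0 for SYVN1 alone (28.6% of all genes). It included 0 for EDEM1, EDEM2 and DERL2. Whether an interval excludes 0 depends on how many counts a gene has. All genes kept include genes with fewer than 100 counts, and this share was not computed for genes with at least 100. The 6 members are therefore not set against genes of like depth.

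**Figure D2:**
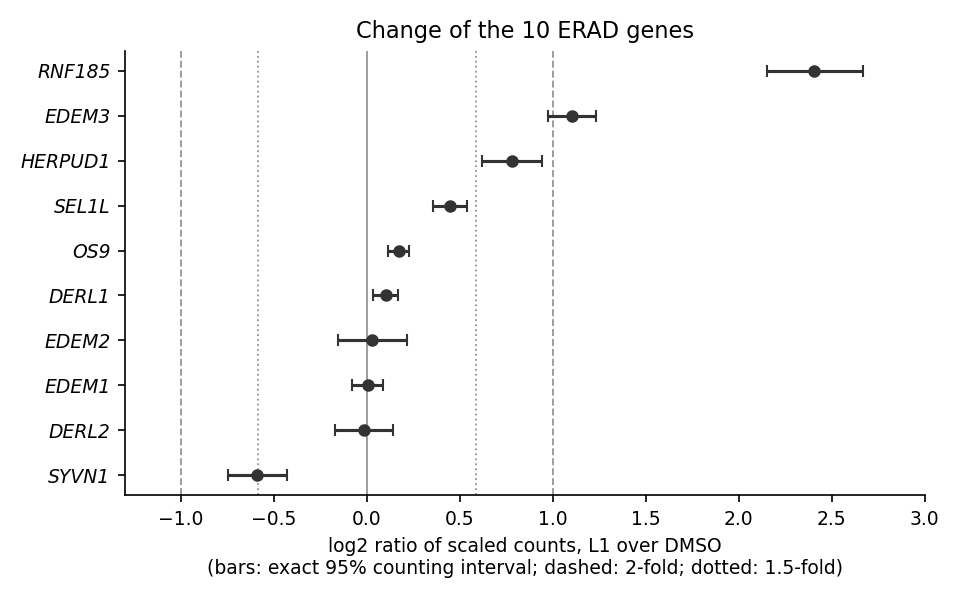
Log2 ratio of scaled counts, L1 over DMSO, of each member, with bars for the exact 95% counting interval, dashed lines at 2-fold and dotted lines at 1.5-fold. RNF185 (2.41) is alone with its whole interval past 2-fold, while the bar of EDEM3 (1.10) crosses the 2-fold line and the bar of SYVN1 (-0.59) crosses the 1.5-fold line.

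**Figure D3:**
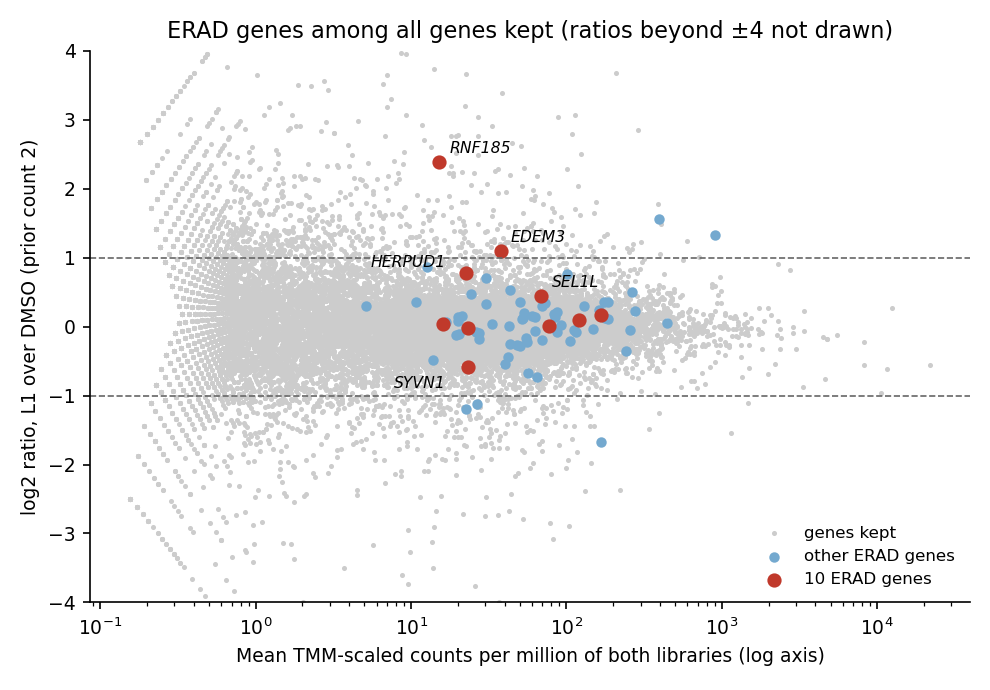
Log2 ratio, L1 over DMSO, with a prior count of 2 (vertical axis) against the mean scaled CPM of both libraries (log axis) for the 18123 genes kept in grey, the other ERAD genes in blue and the 10 members in red, with ratios beyond 4 in either direction not drawn. RNF185 (2.39) lies above most genes of its level, EDEM3 (1.10) just above the dashed 2-fold line, and DERL1 (0.10) and OS9 (0.17) within the grey band.

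The core of the HRD1 complex is formed by SYVN1, SEL1L and HERPUD1. SYVN1 (HRD1) is the ubiquitin ligase of the ER membrane through which many substrates leave the ER, SEL1L is the adaptor that holds the complex together and receives substrates, and HERPUD1 is a membrane protein with a ubiquitin-like domain that joins the complex and is strongly induced in the unfolded protein response. Their log2 ratios lay on opposite sides of 0. HERPUD1 (ENSG00000051108, chromosome 16, 56932048 to 56944863) had 531 counts with DMSO and 788 with L1. Its log2 ratio was 0.78 (interval 0.62 to 0.94), a 1.72-fold higher level. SEL1L (ENSG00000071537, chromosome 14, 81471549 to 81533861) had 1867 and 2197 counts, a log2 ratio of 0.45 (0.36 to 0.54). SYVN1 (ENSG00000162298, chromosome 11, 65121780 to 65134533) had 899 counts with DMSO and 516 with L1. Its log2 ratio of -0.59 (-0.75 to -0.43) was the lowest of the 10, and at 1.5-fold it sat at the limit, so that total count or upper quartile scaling put it short of 1.5-fold. Positions are those of GENCODE release 29 on GRCh38, and all 10 members are annotated as protein-coding.

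The value of SYVN1 is uncertain, because other genes share its exons. FAU, a ribosomal protein gene of the same strand, overlaps it and had 5303 and 5399 counts, a log2 ratio of 0.24 (0.18 to 0.29). MRPL49, on the opposite strand, overlaps it as well and had 638 and 867 counts, a log2 ratio of 0.66 (0.51 to 0.81). Whether the counting used strand, and how it treated reads over shared exons, is not given in the sources used here. Summed with its same-strand neighbours, the locus had a log2 ratio of 0.14, and summed over either strand 0.20, both with the sign turned. In these sums FAU holds most of the counts. SEL1L and HERPUD1 overlap no other annotated gene.

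RNF185 is a RING ubiquitin ligase of the ER membrane, closely related to RNF5, that acts apart from the HRD1 complex. It had the largest difference of the members, with 153 counts for DMSO and 700 for L1. The FPKM was 1.40 and 7.40, and the log2 ratio was 2.41 (2.15 to 2.67), a 5.30-fold higher level. Among the 12365 genes with at least 100 counts in 1 library, RNF185 (ENSG00000138942, chromosome 22, 31160183 to 31207019) stood at position 69 from the top by log2 ratio. Annotated transcripts of other genes contain 10.3% of its 31-base words, the highest share among the members, and reads from such stretches could be assigned to either gene. Its antisense gene RNF185-AS1 had 18 and 8 counts, few beside those of RNF185.

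The partners with which RNF185 works were lower with L1 or near 0. In the ER membrane it assembles with membralin (TMEM259) and a ubiquitin-like protein, TMUB1 or TMUB2, and UBE2K is a ubiquitin-conjugating enzyme that extends chains. UBE2K had 8095 counts with DMSO and 2193 with L1, a log2 ratio of -1.67 (-1.74 to -1.60). TMUB1 had 1006 and 377 counts, a log2 ratio of -1.20 (-1.38 to -1.03). TMEM259 was at -0.28 (-0.39 to -0.18) and TMUB2 at 0.067 (-0.12 to 0.25). Thus 2 of the 4 partners were at least 2-fold lower, against 4.83% of all genes kept, and none was at least 1.5-fold higher, against 13.8%. Their median log2 ratio was -0.74. RNF5, the related ligase, had 2916 and 2560 counts and a log2 ratio of 0.025 (-0.052 to 0.10), and 27.3% of its words are shared with other genes. Per length, RNF5 was far above RNF185 in both libraries, at 81.4 and 82.8 FPKM.

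EDEM1, EDEM2 and EDEM3 are related proteins of the ER lumen that promote the trimming of mannose from misfolded glycoproteins, and OS9 is the lectin that binds the trimmed glycan and hands the substrate to SEL1L. Of the 3 EDEM genes, EDEM3 alone differed between the libraries beyond counting error. EDEM3 (ENSG00000116406, chromosome 1, 184690231 to 184754913) had 766 counts with DMSO and 1419 with L1, a log2 ratio of 1.10 (0.97 to 1.23). The lower bound lies under 2-fold. EDEM1 (ENSG00000134109, chromosome 3, 5187646 to 5219957) had 2475 and 2141 counts, which after scaling gave a log2 ratio of 0.0039 (-0.080 to 0.088). EDEM2 (ENSG00000088298, chromosome 20, 35115357 to 35147364) had 505 and 445 counts and a log2 ratio of 0.031 (-0.16 to 0.22). For these genes counting error alone leaves room for a difference of up to 0.088 and 0.22 on the log2 scale. The spread between cultures, which was not measured, would come on top of that. EDEM3 made up 6.09% of the summed EDEM FPKM with DMSO and 12.1% with L1, while EDEM1 went from 54.3% to 50.4%. With the GENCODE lengths EDEM3 made up 13.5% and 24.9%, and EDEM1 50.3% and 43.4%, so the share of EDEM3 was higher with L1 by either length but its size depends on it. Only 1.06% of the words of EDEM3 are shared with another gene, and none of EDEM2.

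OS9 (ENSG00000135506, chromosome 12, 57693955 to 57721557) was the most deeply counted member, with 5006 counts for DMSO and 4861 for L1. Its log2 ratio was 0.17 (0.11 to 0.23), a 1.13-fold higher level. An antisense gene overlaps it with 80 and 105 counts. ERLEC1, the second ER lectin of this step, had a log2 ratio of 0.20 (0.095 to 0.30), close to that of OS9.

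The derlins DERL1 and DERL2 are membrane proteins of the rhomboid family that have no protease activity and help substrates out of the ER membrane. Both were near 0. DERL1 (ENSG00000136986, chromosome 8, 123013164 to 123042423) had 3740 and 3461 counts, a log2 ratio of 0.10 (0.034 to 0.17), and TBC1D31, which overlaps it on the opposite strand, was at 0.098. DERL2 (ENSG00000072849, chromosome 17, 5471251 to 5486811) had 748 and 639 counts and a log2 ratio of -0.014 (-0.17 to 0.14). MIS12, a kinetochore gene on the opposite strand whose exons overlap DERL2, had 1558 and 460 counts, a log2 ratio of -1.55 (-1.70 to -1.40). If both were counted as 1 locus the log2 ratio would be -0.86. Reads from the bases that the exons of DERL2 and MIS12 share cannot be assigned without knowing whether the counting used strand. The third derlin, DERL3, had 0 counts with DMSO and 2 with L1, too few for a ratio.

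Ratios between 2 genes of the same library do not depend on how the libraries were scaled, and 10 such ratios were computed. The counts of SEL1L were 2.08 times those of its partner SYVN1 with DMSO and 4.26 times with L1. This ratio was 2.05-fold higher with L1, or 1.04 on the log2 scale (0.85 to 1.22). HERPUD1 had 0.591 counts for each count of SYVN1 with DMSO and 1.53 with L1, a log2 change of 1.37 (1.14 to 1.60). With the overlapping same-strand genes added to SYVN1, the log2 changes were 0.30 and 0.64. The ratio of EDEM3 to EDEM1 was 0.309 with DMSO and 0.663 with L1, a log2 change of 1.10 (0.94 to 1.25), and the ratio of EDEM3 to EDEM2 differed by 1.07 (0.84 to 1.30). The ratio of EDEM1 to EDEM2 differed by -0.027 (-0.23 to 0.18), and that of OS9 to ERLEC1 by -0.026 (-0.14 to 0.091), so the intervals of both include 0. The ratio of DERL1 to DERL2 differed by 0.12 (-0.053 to 0.28), and by 0.96 with overlapping genes of either strand added. RNF185 had 0.0525 counts for each count of RNF5 with DMSO and 0.273 with L1, a log2 change of 2.38 (2.11 to 2.65). Against UBE2K the ratio of RNF185 went from 0.0189 to 0.319, the widest of the 10, with a log2 change of 4.08 (3.81 to 4.35). This pair joins the member with the highest log2 ratio to the lowest of the other ERAD genes. Its width follows from the values of both genes given above and is no further result. Such a ratio shows that its 2 genes differed unequally and not which of them differed.

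**Figure D4:**
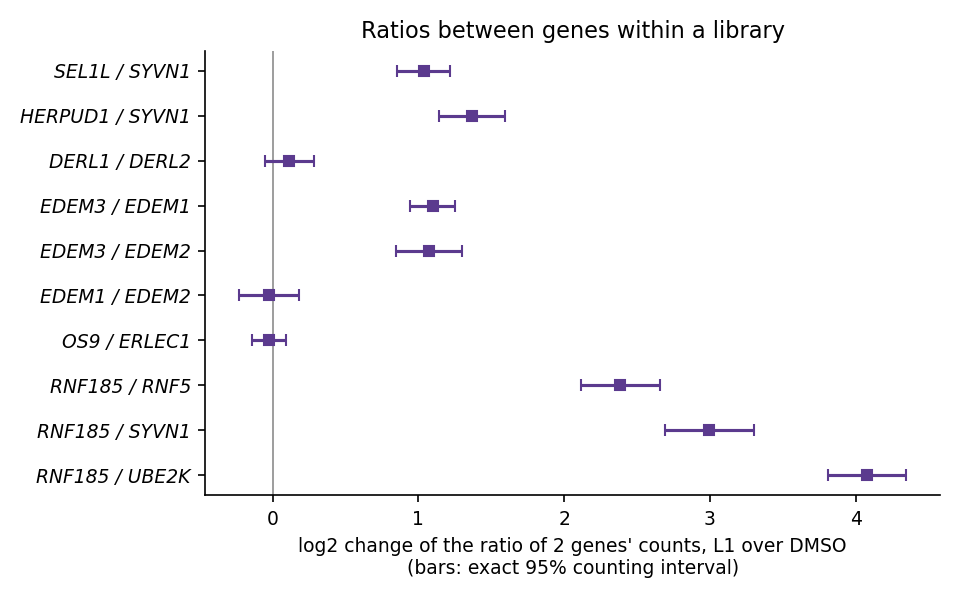
Log2 change, L1 over DMSO, of the ratio between the counts of 2 genes within a library, with bars for the exact 95% counting interval. The ratios that hold RNF185 lie farthest to the right, from 2.38 to 4.08, while DERL1 to DERL2, EDEM1 to EDEM2 and OS9 to ERLEC1 have bars that include 0.

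Around the members, a list of 67 other ERAD genes was arranged by role, and 65 of them passed the filter on counts. Their median log2 ratio was 0.066, with 37 above 0 and 28 below 0. At least 2-fold higher were 2 of the 65, against 7.12% of all genes kept, and 3 were at least 2-fold lower, against 4.83%. At 1.5-fold 5 were higher, against 13.8%, and 5 lower, against 11.4%. Against all genes kept, the list thus held no larger share in either direction. All 65 also had at least 100 counts in 1 library. Among all genes that did, 3.13% were 2-fold higher, 2.92% 2-fold lower, 7.38% 1.5-fold higher and 8.22% 1.5-fold lower. The list's counts of 2, 3, 5 and 5 genes lay near these shares. With so few genes, no difference between the list and these shares can be read. The genes of lumenal delivery, which are chaperones and reductases that keep substrates soluble and bring them to the membrane, had the highest median, 0.56 over 8 genes, with 4 of them at least 1.5-fold higher, against 13.8% of all genes kept. Among these, HSPA5 (BIP) had 6430 and 16325 counts, and HSP90B1 (GRP94) had 16469 and 35776. Their log2 ratios were 1.56 and 1.33, and TOR1A, an ATPase of the lumen, was the lowest of the group at -0.25.

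The 9 kept partners of the HRD1 complex lay between HERPUD2 at -0.073 and SELENOS at 0.53. None passed 1.5-fold, against 13.8% of all genes kept upward and 11.4% downward. SELENOS, a selenoprotein that recruits VCP to the ER membrane, had 1131 and 1410 counts. The 12 other ER ligases and conjugating enzymes had a median of -0.13 and none past 1.5-fold, against the same shares. With lists this short, such a count says little about the role. The highest was RNF121, with 647 and 774 counts and a log2 ratio of 0.47 (0.32 to 0.62).

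The genes of extraction by VCP were divided. VCP itself had 6970 counts with DMSO and 8509 with L1, a log2 ratio of 0.50 (0.46 to 0.55). SVIP, a small inhibitor of VCP in ERAD, had 2562 and 1332 counts, a log2 ratio of -0.73 (-0.83 to -0.63). Of the 6 genes of this role, 2 were at least 1.5-fold lower, against 11.4% of all genes kept. None was at least 1.5-fold higher, against 13.8%. The 5 genes of the glycan checkpoint had a median of -0.014. Their highest was MAN1A2, an alpha-mannosidase, at 0.13, and their lowest UGGT2, a glucosyltransferase that marks misfolded glycoproteins, at -0.48 (-0.69 to -0.28).

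The 16 genes of cytosolic handling, which shuttle, deglycosylate or deubiquitinate extracted substrates, had a median of 0.14. RAD23B, a shuttle to the proteasome, was highest at 0.36 (0.31 to 0.42). USP13, a deubiquitinase, had 1171 and 464 counts and was at -1.12 (-1.28 to -0.97), with an interval that reaches inside 2-fold. It was the single gene of this role past 2-fold, against 4.83% of all genes kept at least 2-fold lower and 7.12% higher. Among erlins, INSIG proteins and membrane proteases, the median of 5 kept genes was 0.29. INSIG1, which links sterol sensing to the degradation of HMG-CoA reductase, had 736 and 1034 counts and a log2 ratio of 0.70 (0.57 to 0.84), and ERLIN2 was lowest at -0.18 (-0.32 to -0.034). RHBDD1, with 7 and 9 counts, was not kept.

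**Figure D5:**
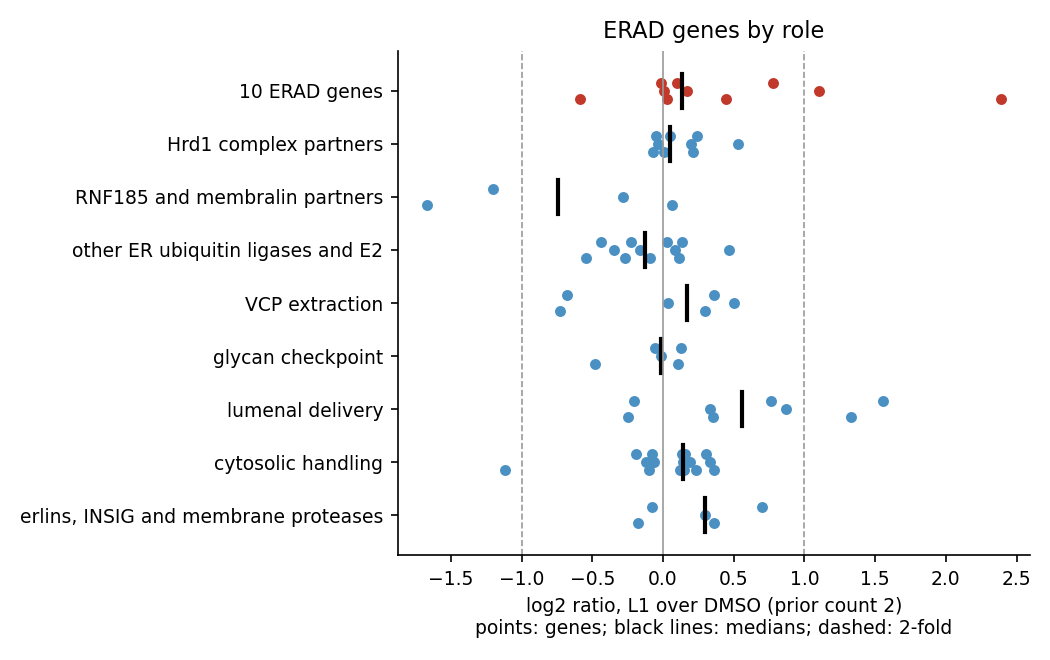
Log2 ratio, L1 over DMSO, with a prior count of 2 for the 10 members (red) and for the other ERAD genes kept, by role (blue), with 1 point per gene, black lines at the medians and dashed lines at 2-fold. The medians run from -0.74 for the partners of RNF185 to 0.56 for lumenal delivery, and that of the 10 members is 0.14.

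The regulators upstream of these genes were also divided. XBP1, the factor spliced by IRE1 that drives many ERAD genes, was at 1.03 (0.94 to 1.12), and DDIT3 (CHOP) at 1.63 (1.31 to 1.97). ATF6 was at 0.082 (-0.0039 to 0.17), its paralog ATF6B at -0.17, the sensor kinases ERN1 (IRE1) and EIF2AK3 (PERK) at 0.25 and 0.098, and ATF4 at -0.13. Of these 7 genes 2 were at least 2-fold higher, against 7.12% of all genes kept, and none was at least 1.5-fold lower, against 11.4%. The counts are summed over all transcripts of a gene, so spliced XBP1 was not measured.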

How the data were processed

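HEL cells were profiled by RNA-seq in 1 library per condition (0.5% DMSO, or 1 µM L1, for 24 h). Per the labels, reads were trimmed with fastp (2.0) and aligned with HISAT2 (2.1.0), with StringTie also listed, on build hg38. A table of raw counts, not normalized, covers 61806 Ensembl genes as the authors deposited it. FPKM were deposited by the authors for 13924 genes. These values differ from the counts by a library ratio of 1.16 that was the same for every gene, so they are no second measurement. The annotation, the counting program and the strand setting are not given in the sources used here. The gene length behind the FPKM is not given either.

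TMM factors were computed with edgeR 4.0.16 and size factors with DESeq2 1.42.0 in R 4.3.3. Ratios, exact intervals and figures used Python 3.11.15, numpy 2.4.6, pandas 2.3.3, scipy 1.17.1 and matplotlib 3.10.9. No test and no p-value is given, since 1 library per condition holds no replicate error. Filters were 10 counts in 1 library for genes kept and 100 counts for named genes. Of the gene identifiers, 58254 are in GENCODE release 29, and overlaps with the other 3552 were not assessed. Changes of a ratio between 2 genes have a conditional exact interval.

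Named were all members, the highest and lowest gene of each role with at least 100 counts in 1 library, all others there past 2-fold, all 7 regulators, and genes that overlap a member. ERLEC1, RNF5, TMEM259, DERL3 and RHBDD1, which are paralogs, partners or genes not kept, fall outside that rule, and their values were known when they were picked. Some genes that the rule or the marker list holds are not reported here. The members and lists were chosen with earlier results of these data known. Alternatives were other scalings, prior counts, filters and folds, FPKM with pseudocounts of 1 and 0.1, and loci summed over overlapping genes. The GENCODE lengths, with the shares and ranges from them, and the summed loci for ratios were added after the data were seen. The scripts were tested on simulated data.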

Additional observations from a re-analysis of the deposited data

How the results depend on the processing

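No paired analysis was possible because there is a single library for DMSO and for L1. Of 70 values of the members' log2 ratios under alternative settings, 65 stayed within the gene's counting interval. Part of this was fixed in advance, so the tally does not measure robustness. A sum over overlapping genes leaves a member without such genes unchanged, and the FPKM rest on the same counts. SYVN1 turned sign with overlapping genes summed, to 0.14 on the same strand and 0.20 on either strand, since FAU then holds most of the counts. With log2(FPKM + 1), EDEM3 was at 0.72 and RNF185 at 1.81, because the pseudocount shrinks low values, and DERL2 moved to -0.86 with MIS12 added. The members at least 2-fold higher were 1 instead of 2 with log2(FPKM + 1) and when the whole counting interval had to lie past 2-fold. The count at least 1.5-fold lower, which is SYVN1 in the values reported, was 0 with total counts, upper quartile scaling, a prior count of 5, log2(FPKM + 1), log2(FPKM + 0.1), same-strand genes summed, and the whole interval past 1.5-fold. With genes of either strand summed it was 1, but that member was DERL2 and not SYVN1. The count of members at least 1.5-fold higher was 3 under every alternative run. The median over the members ranged from 0.10 to 0.19, and that of the other ERAD genes from 0.025 to 0.12. The share of all genes at least 2-fold higher was 12.9% with at least 1 count and 3.13% with at least 100 counts in 1 library, a filter all members pass, so few counts limit that background. Of 20 within-library ratios with summed loci, 7 moved out of their interval and 0 turned sign. Here too, a ratio of genes without such overlaps could not move.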
